A study of Papio cynocephalus with 12 samples.

Results

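The transcripts compared here are those of baboon blood that reached a mean count of 10 or more over the animals with at least 1 of 2 programs run on the same human genome, Stampy-G and GSNAP. They were chosen by this mean alone and number 11478 of the 41970 rows of each table (27.3%). RefSeq lists 10352 of them as coding messages (accessions that begin with NM) and 1126 as non-coding RNAs (NR). A mean of 10 was reached with both programs by 9228 rows, with Stampy-G alone by 2220 and with GSNAP alone by 30. The 2250 rows that entered through a single program had to differ between the programs, and the main counts of calls are therefore also given over the 9228. The 214 rows just inside the minimum, with a higher mean of 10 to under 11, had median means of 10.4 counts with Stampy-G and 4.25 with GSNAP. The 221 rows just outside it, with 9 to under 10, had medians of 9.42 with Stampy-G and 4.17 with GSNAP.

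The animals were 12 yellow baboons (Papio cynocephalus), adult males from a breeding colony, bled at baseline before they were given Streptococcus pneumoniae or no bacteria. These untreated samples, 1 per animal, are all that was compared. The study's methods describe blood drawn into PAXgene tubes with a later globin depletion, but the labels give mononuclear cells as the source. The files name transcripts by RefSeq accession without gene names, so that neither the cell types nor the functions of the transcripts could be checked against markers, and at most 2 accessions are named in each direction. Both programs received the same trimmed 50 bp read pairs of each animal, and a difference between them is a difference in mapping and counting, not in the blood.

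Reads of a baboon differ from the human genome at many positions, since the lineages have long been separate. A program that maps them must tolerate mismatches and small gaps, must deal with reads that run across a splice junction, and must decide what to do with reads that fit several places. Stampy is an unspliced aligner that looks up short words of a read with some tolerance for mismatch and reports its best place, drawn at random among equals. GSNAP is a spliced aligner that can split a read across an intron, asks for an unbroken run of identical bases, permits no more than 1 splice or gap in a read, and may report many places. After mapping, the authors counted the reads of each transcript with htseq-count. Genes with near-identical copies and processed pseudogenes, which are intronless copies of spliced messages, are the textbook cases in which such rules give different counts.

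Stampy-G placed more reads on the compared transcripts in every animal. Their counts summed to 42.6 ± 3.69 per 100 read pairs with Stampy-G and to 23.8 ± 2.03 with GSNAP (SD over n = 12 animals). The lowest animal had 35.5 and the highest 49.6 with Stampy-G, against 20.0 and 27.4 with GSNAP, so that the ranges of the programs did not overlap. The difference was 18.9 per 100 read pairs ± 1.73 (SD of the difference), and Stampy-G was higher in 12 of 12 animals (two-sided exact permutation of the signs, p = 0.000488, which is the smallest that 12 pairs allow). The sums include the 2220 rows that entered through Stampy-G alone, so the filter favours this direction. They were not made over the rows that passed in both tables. The ratio of the programs lay between 1.75 and 1.85 in every animal, with an SD of 0.0259. Animal 1 had the lowest and animal 11 the highest sum with both programs.

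**Figure D1:**
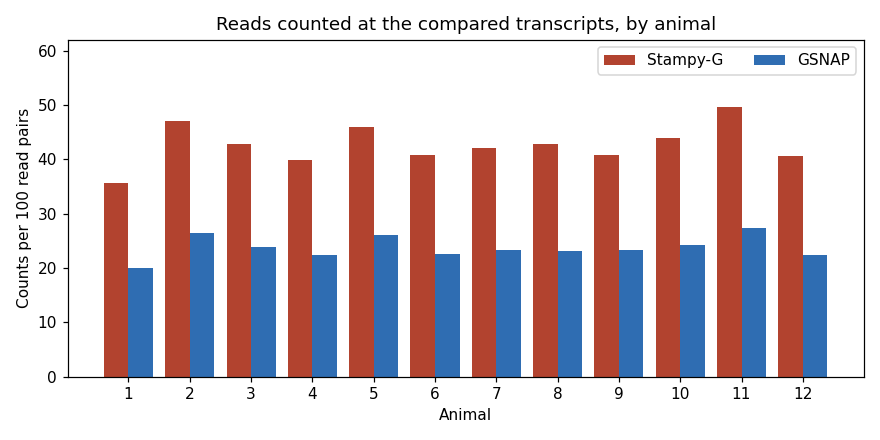
Counts at the 11478 compared transcripts per 100 read pairs (vertical axis) in each of the 12 animals, as a red bar for Stampy-G and a blue bar for GSNAP. Every red bar, from 35.5 to 49.6, stands above every blue bar, from 20.0 to 27.4.

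GSNAP gave fewer counts for nearly all transcripts rather than for a few. With the read pairs as library size, 10897 rows were higher with Stampy-G, 94.9% of those tested, and 220 were lower, 1.92% (edgeR's quasi-likelihood test with the animal as a block, adjusted p under 0.05 by Benjamini-Hochberg). The remaining 361 rows did not pass the test. The median fold change of Stampy-G over GSNAP was 1.88 (0.91 on the log2 scale), and the middle 50% of rows lay between 1.44-fold and 2.86-fold. Among the rows with a mean of 10 in both tables, 8711 of 9228 were higher with Stampy-G and 193 lower. In 10470 rows the level was higher with Stampy-G in all 12 animals, and in 178 rows it was lower in all 12. The levels of the 12 animals did not overlap between the programs in 2811 rows with Stampy-G higher (24.5% of those tested) and in 32 with Stampy-G lower (0.279%). These counts by animal include rows that entered through a single program and were not made over the 9228.

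Most of these directions depended on the scale. When the columns were scaled by TMM, which takes out the shift shared by most transcripts, the median log2 fold change was 0.04, and 5097 rows were higher (44.4%) and 4534 lower (39.5%) with Stampy-G. Of the called rows, 52.9% were then higher with Stampy-G, against 98.0% per read pair. Relative to the bulk of transcripts, a further 2-fold excess was found in 2043 rows for Stampy-G (17.8%) and in 210 rows for GSNAP (1.83%). A transcript described below as lower with Stampy-G per read pair was therefore lower by still more relative to the bulk.

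**Figure D2:**
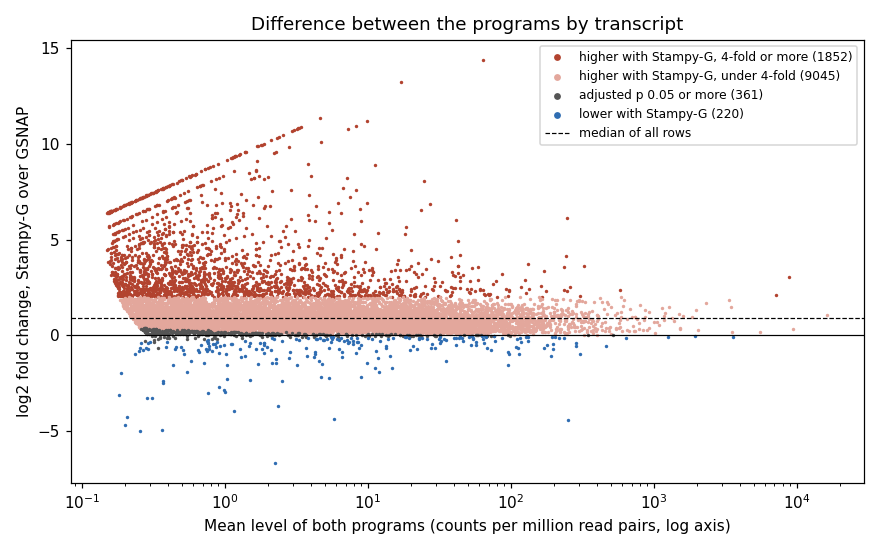
log2 fold change of Stampy-G over GSNAP (vertical axis) against the mean level of both programs in counts per 1000000 read pairs (horizontal log axis), 1 point for each of the 11478 rows. Most points lie around the dashed median of 0.91 and the blue points below 0 number 220; the straight upper edges hold rows with almost no GSNAP count, whose fitted value depends on the small count the fit adds.

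Transcripts that GSNAP all but lost form a long tail. A difference of 2-fold or more in favour of Stampy-G was called in 5206 rows (45.4%) and of 4-fold or more in 1852 rows (16.1%). Among the rows with a mean of 10 in both tables these numbers were 3332 and 606. Of the compared rows, 132 had no count with GSNAP in any animal, 96 of them NM and 36 NR, and 17 of these averaged 100 counts or more with Stampy-G. Their median mean count with Stampy-G was 23.2 and the highest was 1175. No compared row was at 0 in every animal with Stampy-G.

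Taking 5 counts as detection, Stampy-G found 457 transcripts of the whole table in each of the 12 animals that GSNAP found in no animal (348 NM and 109 NR), and 5 showed the reverse (4 NM and 1 NR). Of the 457, 440 are among the compared rows. Their mean counts with Stampy-G had a median of 23.8 and reached 4424, whereas with GSNAP the median was 0.417 and the highest 2.67. The other genome programs saw part of them. Bowtie2-G detected 107 of the 457 in every animal and 95 in none, and TopHat2 detected 153 in every animal and 126 in none. Both detected 50 in every animal (10.9%), and neither detected 41 in any (8.97%). Of those 41, Stampy on the transcriptome detected 26 in every animal. Of the 457 it detected 380 in every animal, and Bowtie2 on the transcriptome detected 260. After columns were thinned to equal totals, 255 transcripts were found with Stampy-G alone and 9 with GSNAP alone.

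Among transcripts with a mean of 100 counts in a table, the same direction in all 12 animals and no added number in the accession, the 2 with the largest fitted excess with Stampy-G were NM_001079808 and NM_001032. Both entered through Stampy-G alone and were picked for their difference, so their values are a description and no test is given. NM_001079808 had 128 counts in its lowest animal with Stampy-G, a median of 535.5 and a highest value of 944, whereas with GSNAP it was at 0 in 10 animals and had a single count in each of the others. The summed counts of 6824 with Stampy-G and 2 with GSNAP give a ratio of 3412, with a 95% exact binomial counting interval of 944 to 28180. The interval treats the counts of the programs as independent, although both come from the same reads. It describes a picked row and is not a test of the difference. The other genome programs disagreed on this transcript, with 19.1 counts per 1000000 read pairs with Bowtie2-G and 0.0771 with TopHat2, against 16.6 with Stampy-G and 0.00481 with GSNAP.

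NM_001032 had 128 to 411 counts with Stampy-G (median 212.5) and none with GSNAP in any of the 12 animals. It was at least 909-fold higher with Stampy-G, taking 3 counts over all GSNAP columns together as the floor. Here TopHat2 stood highest of the genome programs, at 38.1 ± 12.1 counts per 1000000 read pairs, against 6.58 ± 2.33 with Stampy-G and 3.11 ± 1.21 with Bowtie2-G (SD over n = 12 animals). Both accessions were thus close to absent with GSNAP, but their counts in the other tables followed no common order. For both, the animals' values did not overlap between the programs.

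**Figure D3:**
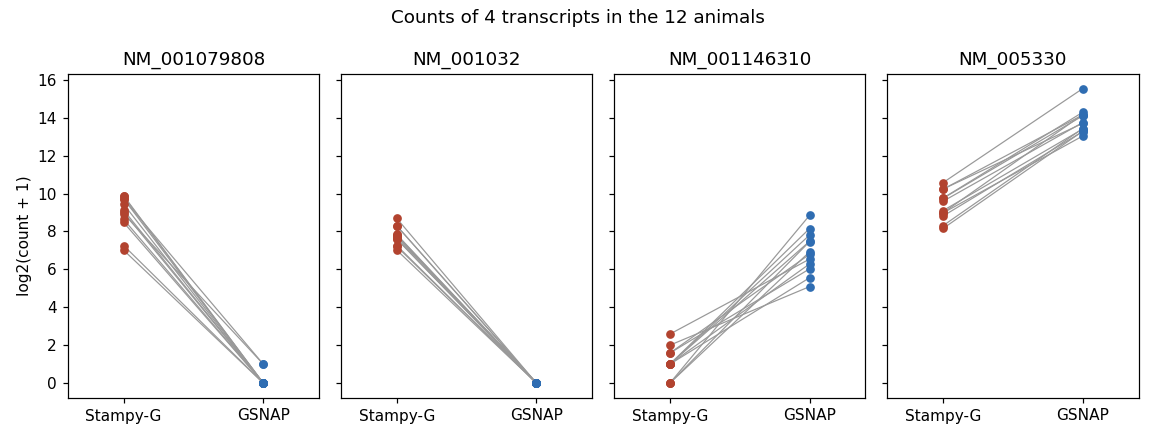
log2(count + 1) of 4 named transcripts (1 panel each) with Stampy-G (left, red) and GSNAP (right, blue), with a line for each of the 12 animals. NM_001079808 and NM_001032 drop to 0 or 1 count with GSNAP in every animal, and NM_001146310 and NM_005330 are higher with GSNAP in every animal.

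Of the 15 largest differences in favour of Stampy-G under the same rule, 14 were NM and 1 was NR, and 12 were at 0 with GSNAP in every animal. All 15 entered through Stampy-G alone. Their median level was 5.92 counts per 1000000 read pairs with Stampy-G, 0.499 with Bowtie2-G, 0.434 with TopHat2 and 0 with GSNAP. TMM scaling returned 14 of the same 15.

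Much of the excess in reads came from abundant transcripts with moderate folds. Gains of single rows summed to 19.2 counts per 100 read pairs and losses to 0.315. Rows with a called excess under 2-fold held 34.3% of the gain, those of 2-fold to 4-fold 45.1% and those of 4-fold or more 20.6%. The 10 rows with the largest gains held 26.2% of it, the 100 largest 46.3%, and 139 rows were enough for 50%. The largest single gain, 7.18% of the total, fell to an NM row with an added number. With Stampy-G this row had from 9164 to 21993 counts per 1000000 read pairs (median 16317), and with GSNAP from 907 to 3276 (median 1860). The ranges did not overlap, and the fold of Stampy-G over GSNAP was 8.31 (3.06 ± 0.07 SE on the log2 scale, edgeR, adjusted p = 4.75e-16). This row and the next by gain were picked for their gains, so their p-values are descriptions.

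The next rows by gain were both NM rows without an added number. The second is the most abundant row with either program, with a median of 17829 counts per 1000000 read pairs with Stampy-G (10419 to 63634) and 8572 with GSNAP (5099 to 31866), a fold of 2.08 (log2 1.06 ± 0.02 SE, edgeR, adjusted p = 2.17e-17). The third had a median of 8350 with Stampy-G (3220 to 53625) and 1922 with GSNAP (1008 to 10599), a fold of 4.27 (log2 2.09 ± 0.04 SE, edgeR, adjusted p = 3.65e-17). In both rows the animals varied widely and their ranges overlapped between the programs, while Stampy-G was higher in 12 of 12 animals. On the third row the remaining genome programs were far apart, with means of 10092 for Bowtie2-G and 1178 for TopHat2.

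These gains reorder the abundant transcripts only in part. Of the 10 most abundant rows with either program, 8 were shared, of the 100 most abundant 79, and of the 1000 most abundant 848. The row that moved farthest out of the first 100 of Stampy-G ranked 94 there and 3691 with GSNAP. It had 3689 to 30821 counts with Stampy-G (median 13912) and 77 to 487 with GSNAP (median 206.5), with no overlap between the programs, a log2 fold change of 6.12 ± 0.04 SE (edgeR, adjusted p = 6.55e-23). The row was picked for its shift in rank, so the p-value is a description. With TopHat2 it had 351 counts per 1000000 read pairs and with Bowtie2-G 115, against 492 with Stampy-G and 7.11 with GSNAP.

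Transcripts that went the other way were few. Of the 220 rows lower with Stampy-G, 52 were lower by 2-fold or more (0.453% of those tested), and 177 of the 220 were lower in all 12 animals. Among rows with a mean of 10 in both tables, 193 were lower, 34 of them by 2-fold or more. In all, 141 of the 220 had a mean of 100 counts or more with at least 1 of the programs. The 10 rows with the largest losses held 55.7% of all counts lost, and a single accession, NM_005330, held 14.6%.

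NM_005330 had 284 counts in its lowest animal, a median of 658.5 and a highest value of 1523 with Stampy-G, against 8378, 13513 and 47396 with GSNAP. Its log2 fold change of Stampy-G over GSNAP was -4.43 ± 0.13 SE (edgeR's quasi-likelihood test, adjusted p = 7.78e-15), lower in 12 of 12 animals with no overlap. The transcript was picked for its difference, so the p-value is a description. It ranked 2787 with Stampy-G and 56 with GSNAP. Bowtie2-G gave 415 ± 263 and TopHat2 672 ± 391 counts per 1000000 read pairs, against 21.7 ± 11.3 with Stampy-G and 481 ± 304 with GSNAP (SD over n = 12 animals). On this transcript Stampy-G thus stood apart from the other genome programs. On the transcriptome, Stampy gave 147 and Bowtie2 737 counts per 1000000 read pairs.

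NM_001146310 had the largest fitted loss. It had 0 to 5 counts with Stampy-G (median 1), with 3 animals at 0, and 33 to 459 counts with GSNAP (median 115). The ranges did not overlap and the log2 fold change was -6.65, given without a test because the row entered through GSNAP alone and had to be lower with Stampy-G. Bowtie2-G sided with Stampy-G here, at 0.0692 counts per 1000000 read pairs against 0.0417 with Stampy-G, and TopHat2 was far above GSNAP, at 35.5 against 4.45. The 15 largest losses under the rule comprised 14 NM and 1 NR accession, with log2 fold changes from -6.65 to -1.45, and TMM scaling returned all 15. Their median levels in counts per 1000000 read pairs were 2.48 with Stampy-G, 5.04 with Bowtie2-G, 26.2 with TopHat2 and 8.81 with GSNAP. TopHat2 was the highest of the 4 genome programs in 13 of the 15.

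The other genome tables were not used to choose the rows, and they stood differently beside the 220 rows lower with Stampy-G. These rows were chosen for a low Stampy-G level, which by itself lets another table stand above Stampy-G more often. The contrasts with all compared rows therefore follow in part from the choice. TopHat2 was higher than Stampy-G in 190 of the 220 (86.4%), against 2868 of all 11478 compared rows. It was the highest of the 4 genome programs in 171. Bowtie2-G, unspliced like Stampy-G, was higher than Stampy-G in 114 of the 220 (51.8%), against 323 of all compared rows (2.81%). On the log2 scale TopHat2 was nearer to Stampy-G than to GSNAP in 34 of the 220 (15.5%) and Bowtie2-G in 161 (73.2%). For the 52 rows lower by 2-fold or more, the median level was 0.801 counts per 1000000 read pairs with Stampy-G, 1.38 with Bowtie2-G, 6.68 with TopHat2 and 3.16 with GSNAP. The 52 include rows that entered through GSNAP alone and had to be lower with Stampy-G.

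Of the 1852 rows higher by 4-fold or more, 1246 had entered through Stampy-G alone, and the 606 with a mean of 10 in both tables are therefore described. Their median levels were 8.00 counts per 1000000 read pairs with Stampy-G, 3.57 with Bowtie2-G, 3.83 with TopHat2 and 1.16 with GSNAP. Bowtie2-G was nearer to Stampy-G than to GSNAP in 356 of them (58.7%) and TopHat2 in 393 (64.9%). Over all 9228 rows with a mean of 10 in both tables these shares were 62.1% for Bowtie2-G and 85.2% for TopHat2. All 4 tables come from the same reads, and these shares are descriptions without a test.

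**Figure D4:**
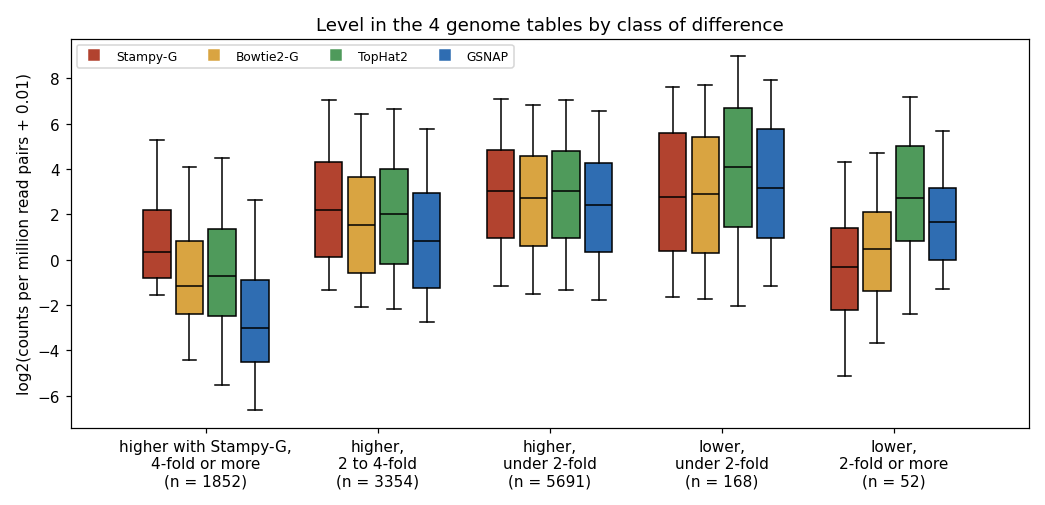
log2(counts per 1000000 read pairs + 0.01) in the Stampy-G, Bowtie2-G, TopHat2 and GSNAP tables (coloured boxes, left to right) for rows grouped by their called difference between Stampy-G and GSNAP. Boxes hold the middle 50% of rows with the median as a line and whiskers span the 5th to 95th percentile. TopHat2 has the highest median in both groups that are lower with Stampy-G; the group higher by 4-fold or more holds 1246 rows that entered through Stampy-G alone.

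Non-coding accessions differed more between the programs than coding ones, in both directions. Over the rows with a mean of 10 in both tables, the median fold of Stampy-G over GSNAP was 2.08 for 652 NR rows and 1.71 for 8576 NM rows. An excess of 4-fold or more was called in 116 of these NR rows (17.8%) and 490 of the NM rows (5.71%), beside 6.57% of all 9228. Of the NR rows 46 were lower with Stampy-G (7.06%), against 147 of the NM rows (1.71%). Over all compared rows, of which 57.9% of NR and 82.8% of NM rows passed in both tables, the 4-fold shares were 37.8% for NR and 13.8% for NM, beside 16.1% of all. Summed counts at NR rows were 1.31 ± 0.175 per 100 read pairs with Stampy-G and 0.575 ± 0.0675 with GSNAP, and at NM rows 41.3 ± 3.64 with Stampy-G and 23.2 ± 2.01 with GSNAP (SD over n = 12 animals). Within NM, RefSeq accessions of 9 digits, a format introduced after the 6-digit one, were higher by 4-fold or more in 11.1% of 1085 rows that passed in both tables, and those of 6 digits in 4.94% of 7491.

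The median difference varied less with level once a mean of 10 was asked of both tables. That minimum itself removes low rows with a large excess of Stampy-G, so part of the flattening follows from the filter. By quintile of the TopHat2 level, the median log2 fold change over the 9228 rows was 0.78, 0.86, 0.82, 0.77 and 0.68 from the lowest quintile to the highest. In the same order, rows higher by 4-fold or more were 7.85%, 10.2%, 6.77%, 4.55% and 3.47% of the quintiles. Rows lower with Stampy-G were 1.57%, 1.25%, 1.63%, 1.84% and 4.17%. Over all compared rows the medians were 1.58, 0.98, 0.88, 0.81 and 0.68 from the lowest quintile to the highest. Those quintiles were cut over all compared rows, so they span other TopHat2 levels than the quintiles of the 9228. The low quintiles of all compared rows also hold rows that entered through Stampy-G alone and had to be higher with it. In each quintile of the 9228 rows, NR rows had the larger median, 1.01 against 0.75 for NM in the lowest and 0.87 against 0.67 in the highest, the last with only 34 NR rows. All shares by kind and level are descriptions.

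**Figure D5:**
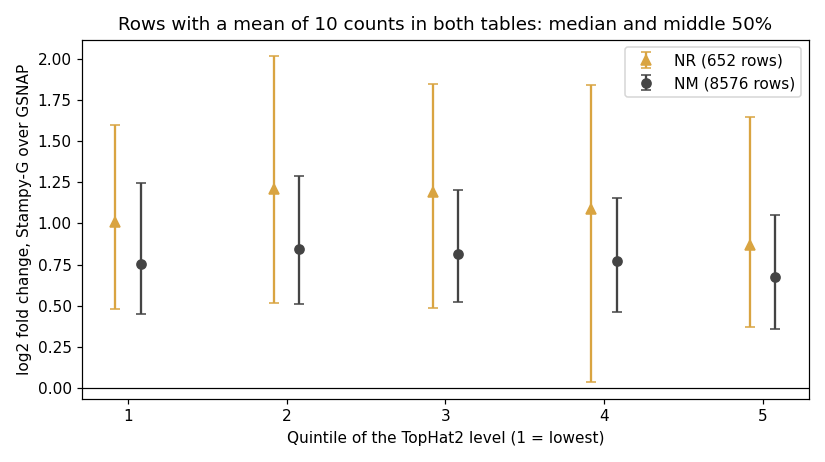
Median log2 fold change of Stampy-G over GSNAP (vertical axis, symbols) with the middle 50% of rows (bars) by quintile of the TopHat2 level (horizontal axis) for NR and NM rows with a mean of 10 counts in both tables. NR medians, from 0.87 to 1.21, stand above the NM medians, from 0.67 to 0.85, in every quintile, and the bars overlap.

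The 132 compared rows whose accession carries an added number comprised 96 NM and 36 NR rows. Of the 81 with a mean of 10 in both tables, 11 were higher with Stampy-G by 4-fold or more (13.6%) and 5 were lower, and their median fold was 1.75. Counts of all 132 rows, which include rows that entered through a single program, summed to 2.28 ± 0.491 per 100 read pairs with Stampy-G. With GSNAP the sum was 0.456 ± 0.0959 (SD over n = 12 animals). The row with the largest gain, described above, is one of the 132 and averaged 15712 counts per 1000000 read pairs with Stampy-G and 1942 with GSNAP. This single row held most of the difference between the sums. The sources do not say what the number marks. An accession with several rows is listed more than once in the table, and 72 compared rows belong to 44 such accessions. Only 29 of the 72 reached a mean of 10 in both tables. Of these, 13 were lower with Stampy-G (44.8%) and 3 higher by 4-fold or more, with a median log2 fold change of 0.08, against 1.96% lower and a median of 0.78 among the 9199 rows of accessions with a single row. Over all 72, which include rows that entered through a single program, 43 were higher by 4-fold or more (59.7%) and 15 lower (20.8%). The other compared rows had 15.9% and 1.80%. With the rows of an accession added up, 1834 of 11454 rows with a mean of 10 in either table were higher by 4-fold or more and 210 lower. Of the 48 accessions with several rows among them, 25 were higher by 4-fold or more (52.1%) and 5 were lower. Stampy-G reached a mean of 10 counts in 2 rows or more for 25 of these accessions and GSNAP for 3. In 15 of the 22 for which GSNAP had fewer than 2 such rows it had a single one, and in 7 none.

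The difference between the programs repeated closely from animal to animal. Over the 5283 rows with a mean of 100 counts or more in both tables, the SD over animals of the log2 ratio of the counts had a median of 0.06 and a 95th percentile of 0.15. The SD of the level itself between animals had a median of 0.37 with Stampy-G and 0.37 with GSNAP on the same scale. The ratio varied more than the level in 17 rows (0.322%). The animal with the highest level was the same with both programs in 4703 of the 5283 rows (89.0%). Because both programs mapped the same reads, variation between animals is shared and largely cancels in the ratio. The smaller spread of the ratio and the shared highest animal follow in part from this pairing. The ratio spread grew with the difference, with a median SD of 0.14 in the 177 rows higher by 4-fold or more and 0.05 in the 3492 rows higher by under 2-fold.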

How the data were processed

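Blood RNA-Seq tables of 12 untreated yellow baboons were analysed. The authors trimmed the read pairs (Trimmomatic 0.25), mapped them to hg19 with Stampy and GSNAP (and with Bowtie2 2.0.6 and TopHat2 2.0.7 for the other tables) at default settings, and counted reads per transcript (htseq-count, HTSeq 0.5.4, intersection-nonempty). Primary alignments alone were counted where the study quantified expression for differential testing. The authors deposited unnormalised whole-number counts. The strand setting and the treatment of marked duplicates are not given in the sources used here, so overlapping and antisense transcripts cannot be told apart. Reads shared by near-identical copies are handled differently by the programs, and counts of such copies are uncertain.

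Columns were matched to animals by number. Every Stampy-G column correlated best with the GSNAP column of the same number (12 of 12). No 2 animals were duplicates (smallest chi-square per degree of freedom 24.3). Total counts were 12886962 to 17230407 with Stampy-G and 7249470 to 9508757 with GSNAP. Library size was the number of read pairs after quality control that the study lists for each animal. Levels are counts per 1000000 read pairs.

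Rows with a mean count of 10 or more in either table were tested with edgeR 4.0.16 (glmQLFit, glmQLFTest, R 4.3.3), animal as a block, which follows from the design since both columns hold the same reads. A p-value measures how evenly a difference between 2 mappings repeats over animals. Standard errors were computed from the F statistic and are approximate. The script was tested on simulated data. Descriptions by kind, level and other tables over rows with a mean of 10 in both tables come from a fit on those rows alone. Log2 ratios per animal used 0.5 added counts. Intervals and the floor of 3 counts cover counting error only. The permutation test took all 4096 sign exchanges. The comparison, the rule for rows and the lists were chosen with earlier results of these data known. The gene and marker lists were not used, because the sources pair no accession with a gene name. Named accessions are the largest called differences in each direction with a mean of 100 counts or more in a table, the same direction in 12 of 12 animals and no added number, 2 a direction. Alternatives covered scaling, test, block, filter, correction, summed rows and detection minimum. Other tools were DESeq2 1.42.0, Python 3.11.15, numpy 2.4.6, pandas 2.3.3, scipy 1.17.1 and matplotlib 3.10.9.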

Additional observations from a re-analysis of the deposited data

How the results depend on the processing

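Both scaling and the filter changed counts of calls by over 1.5 times. With TMM, DESeq2 size factors in edgeR, or column totals (the last added after seeing the data), rows higher with Stampy-G were 5097, 5061 and 5320 and rows lower 4534, 4600 and 4292. At 2-fold or more, rows higher were 2043, 2032 and 2113 and rows lower 210, 216 and 194. At 4-fold or more, rows higher were 1019, 1018 and 1042. With a mean of 100 in either table (6635 rows tested), 6407 rows were higher and 142 lower, with 2521 and 27 at 2-fold or more and 590 higher at 4-fold or more. With a mean of 10 in both tables, 3332 and 34 rows differed by 2-fold or more and 606 were higher by 4-fold or more. Without a filter (23034 rows tested), these were 8937, 129 and 3971. With rows chosen by the TopHat2 table, an alternative added after seeing the data, 107 rows were lower by 2-fold or more. Without the replicate block, 131 rows were lower and 9410 higher, and the block changed no other count by over 1.5 times. Thinning to the smallest total gave 255 transcripts detected only with Stampy-G and 9 only with GSNAP. DESeq2 in place of edgeR (10826 higher, 212 lower), a mean of 10 over both tables together, Bonferroni correction, rows of an accession summed and leaving out animal 11 moved no count by over 1.5 times. The counted share kept its direction with NM rows alone (18.1 per 100 read pairs) and without the 10 most abundant rows (14.2). Both sums still hold rows that entered through Stampy-G alone and had to be higher with it. They therefore do not show the direction free of the filter, and no sum was made over rows that passed in both tables. Depth limits the rows with few counts. At any level, a transcript at 0 with GSNAP may be present but uncounted. Of the 132 compared rows at 0 in every animal with GSNAP, 17 averaged 100 counts or more with Stampy-G.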

Other observations

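Among the 5283 rows with a mean of 100 counts or more in both tables, 5 had a ratio of the programs that ranged over 4-fold or more between animals. They were found by their values and carry no test. In 2 of them, both NM rows, a single animal stood apart while the ratios of the 11 others stayed within 2-fold of each other. In the first, animal 7 had 15050 counts with Stampy-G and 241 with GSNAP, a log2 ratio of 5.96. The other animals had 176 to 440 counts with Stampy-G (median 244) and 72 to 215 with GSNAP (median 121). The excess of animal 7 was also in the tables of Bowtie2-G (6026 counts, against 225 to 554 in the others), TopHat2 (2084, against 78 to 227), Bowtie2 (8469, against 160 to 436) and Stampy (10631, against 151 to 383). With GSNAP, animal 7 was barely above the highest of the others.

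In the second, animal 11 was low with every program. It had 48 counts with Stampy-G and 0 with GSNAP, against 513 to 2932 and 79 to 637 in the other animals, and 21 with Bowtie2-G and 14 with TopHat2, against 227 to 1460 and 267 to 1747. The log2 ratio of animal 11, 6.60 against 2.20 to 2.69, rests on a count of 0.

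The widest ratio belonged to an NR row with an on and off pattern. With GSNAP, 4 animals had 270 to 422 counts and 8 had 2 or fewer, 5 of them 0. With Stampy-G the same 4 animals had 305 to 594 counts, and 7 of the remaining 8 had 3 to 7. The last of the 8, animal 12, had 73 counts with Stampy-G and 0 with GSNAP, with 2 counts from Bowtie2-G and 138 from TopHat2.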
